A study of Homo sapiens with 6 samples.

Results

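The genes described here are 51 genes for the receptors, proteins and enzymes with which a cell holds and rebuilds its surrounding matrix. They were taken by symbol from a list of integrin subunits, laminin and collagen chains, matrix glycoproteins, matrix metalloproteinases and their inhibitors, plasminogen activators, ADAM proteases and other matrix receptors. All 51 symbols were among the 56638 symbols counted in each sample. The RNA came from HCT116, a human colorectal carcinoma cell line with the morphology of an epithelium, in 3 wild-type (WT) and 3 METTL3-knockout (METTL3-KO) samples, all at passage 16-19. METTL3 is the catalytic subunit of the complex that writes m6A on mRNA. The knockout cells were made with a lentiviral CRISPR-Cas9 vector, selected with puromycin and grown out as a single-cell clone, so the knockout and what is particular to that clone cannot be told apart. All samples were grown in McCoy's 5a medium with 10% fetal bovine serum. Nothing says that the 3 samples of a group were separate cultures, and the p-values then measure the spread between these samples, which may be technical.

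Epithelial cells stand on a basement membrane, a sheet of laminin trimers, type IV collagen and other glycoproteins. Integrins, each a pair of an alpha and a beta subunit, bind these proteins from the cell surface and join them to the cytoskeleton, at focal adhesions to actin and at hemidesmosomes to keratin. Laminin trimers hold an alpha, a beta and a gamma chain, and the chains assemble inside the cell before secretion. Matrix metalloproteinases cut matrix proteins and are held back by the TIMP proteins, while plasminogen activators make plasmin at the cell surface and ADAM proteases release the outer parts of membrane proteins. In colorectal carcinoma these genes are best known for their place in invasion.

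Promoter sequences are shown for 5 members, 4 of which had the largest changes among members with at least 1 CPM (counts relative to the size of the library): THBS1, COL17A1, LAMA3 and LAMB2. LAMB3 is shown because its protein pairs with that of LAMA3 and its RNA was at the same mean level in both groups. Each window holds 250 bases before and 50 bases after a start listed for the gene in RefSeq on GRCh38.p14 and runs 5′ to 3′ on the strand of the gene. A listed start need not be that of the longest transcript, and the counts cover the whole gene. Capitals mark the letters of an AP-1 site (TGACTCA, which on the opposite strand reads as TGAGTCA) or of a TATA box (TATAAA, which on the opposite strand reads as TTTATA). The windows lie at chr18:23872770-23873069 (LAMA3, + strand), chr1:209651325-209651624 (LAMB3, - strand), chr10:104085831-104086130 (COL17A1, - strand), chr15:39580829-39581128 (THBS1, + strand) and chr3:49133001-49133300 (LAMB2, - strand).
LAMA3: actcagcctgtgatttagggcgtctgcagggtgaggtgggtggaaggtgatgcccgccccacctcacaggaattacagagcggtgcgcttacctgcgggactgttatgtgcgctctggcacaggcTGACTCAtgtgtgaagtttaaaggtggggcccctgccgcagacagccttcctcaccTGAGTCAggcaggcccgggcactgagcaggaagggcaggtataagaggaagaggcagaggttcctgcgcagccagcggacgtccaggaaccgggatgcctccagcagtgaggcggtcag
LAMB3: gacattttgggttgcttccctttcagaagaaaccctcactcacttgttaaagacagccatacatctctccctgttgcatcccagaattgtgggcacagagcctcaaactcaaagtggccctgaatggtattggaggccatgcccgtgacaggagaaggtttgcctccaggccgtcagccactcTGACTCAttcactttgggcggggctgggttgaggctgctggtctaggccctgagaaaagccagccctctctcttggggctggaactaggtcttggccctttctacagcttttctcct
COL17A1: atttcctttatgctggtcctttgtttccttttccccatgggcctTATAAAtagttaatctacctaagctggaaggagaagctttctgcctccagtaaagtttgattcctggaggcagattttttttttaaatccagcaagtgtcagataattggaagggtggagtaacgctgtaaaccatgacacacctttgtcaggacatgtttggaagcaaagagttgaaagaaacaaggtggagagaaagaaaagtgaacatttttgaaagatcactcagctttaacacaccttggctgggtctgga
THBS1: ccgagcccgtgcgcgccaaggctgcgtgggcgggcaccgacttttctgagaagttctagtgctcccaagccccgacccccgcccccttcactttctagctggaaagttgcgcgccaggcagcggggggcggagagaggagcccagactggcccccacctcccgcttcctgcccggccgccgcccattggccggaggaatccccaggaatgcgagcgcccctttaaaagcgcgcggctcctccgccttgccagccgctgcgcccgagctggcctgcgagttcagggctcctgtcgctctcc
LAMB2: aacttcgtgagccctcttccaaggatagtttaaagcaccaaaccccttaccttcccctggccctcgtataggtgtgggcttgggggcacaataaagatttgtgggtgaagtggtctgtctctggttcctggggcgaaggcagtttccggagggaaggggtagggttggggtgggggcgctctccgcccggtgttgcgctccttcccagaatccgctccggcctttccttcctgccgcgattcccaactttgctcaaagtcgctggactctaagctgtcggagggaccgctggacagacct

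The LAMA3 window held 2 AP-1 matches, beginning 125 and 69 bases before the start. The LAMB3 window held 1, beginning 67 bases before the start. It was picked out of 3 LAMB3 windows because it held this match, and the other LAMB3 windows held 0. Promoters were found for 41 of the 51 members, 53 windows in all. AP-1 letters were in 5 of these 53 windows (9.43%), those of ITGA5, LAMA3, LAMB3, MMP7 and PLAUR, against 4.95% of all 35116 windows in the table. TATA letters were in 9.43% of the members' windows and 11.5% of all windows. Those marked in the COL17A1 window begin 206 bases before the start. The GC box (GGGCGG, which on the opposite strand reads as CCGCCC) was in 39 of the 53 windows (73.6%) and in 45.0% of all windows. Matches of different motifs shared bases in 0 of the 53 windows. These are matches of letters in a window and do not show a bound site.

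A further promoter is shown for its position. COL4A1 and COL4A2 code for the chains of the common type IV collagen trimer and lie head to head on chromosome 13, with starts 127 bases apart. The window of COL4A2, chr13:110307034-110307333 on the + strand of GRCh38.p14, is printed with the bases from the start of COL4A1 up to the start of COL4A2 in capitals.
COL4A2: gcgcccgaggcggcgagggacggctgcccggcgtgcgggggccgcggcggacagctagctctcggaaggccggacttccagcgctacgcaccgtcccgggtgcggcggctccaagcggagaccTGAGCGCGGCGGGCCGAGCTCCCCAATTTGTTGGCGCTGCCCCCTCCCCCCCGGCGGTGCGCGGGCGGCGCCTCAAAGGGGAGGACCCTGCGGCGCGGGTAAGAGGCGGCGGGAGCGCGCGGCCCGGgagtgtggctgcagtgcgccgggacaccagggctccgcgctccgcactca

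Counts on genes ranged from 20936091 to 30142144 per sample. METTL3 itself, the targeted gene, had 841, 682 and 623 counts in WT and 219, 169 and 162 in METTL3-KO, which was 24.3% of the WT level after scaling. Replicate 3 stood apart in both groups. Between replicates 1 and 2 the chi-square per gene was 2.58 in WT and 2.34 in METTL3-KO, and every comparison with replicate 3 gave 8.32 to 23.1. The deviation followed transcript length, rising by 0.114 log2 units per doubling of length in WT replicate 3 and falling by 0.0684 in METTL3-KO replicate 3. The members were long transcripts, with a median of 5886 bases against 3727 for all genes with at least 1 CPM. Of the 33 tested members with at least 1 CPM, 22 had their highest WT value in replicate 3 and 11 their lowest. In METTL3-KO, 16 had their lowest value in replicate 3 and 11 their highest. Of all 14149 genes at that level, WT replicate 3 was the highest in 5658 and the lowest in 6520. METTL3-KO replicate 3 was the lowest in 4936 and the highest in 6484. Values without replicate 3 of both groups are therefore given for the members that passed and for others that moved. All 8 epithelial markers had over 1 CPM in these samples, and their summed level ran from 5800 to 7193 CPM in WT and from 8297 to 9253 CPM in METTL3-KO. KRT8 made up most of this sum. EPCAM, KRT18 and CDX2 overlapped between the groups. CDH1, KRT8, KRT19, CDX1 and VIL1 were higher in every METTL3-KO sample than in any WT sample. Of 9 fibroblast and other stromal markers, COL1A2, COL3A1 and PDGFRA were at 0 in all samples and 2 had over 1 CPM, with summed levels of 5.44 to 7.21 CPM in WT and 9.49 to 10.2 CPM in METTL3-KO. Endothelial markers summed to at most 0.182 CPM, with 2 of 4 at 0. Of 5 leukocyte markers 1, CD14, had over 1 CPM, and the list summed to 5.53 to 6.90 CPM in WT and 6.40 to 10.6 CPM in METTL3-KO. The part of these differences in the results below was not tested. In RNA from whole cultures, fewer cells of a kind and less RNA per cell cannot be told apart.

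The 51 members divided into 33 with at least 1 CPM, 7 that were tested at lower levels and 11 that had fewer than 5 counts in both groups and were not tested. Of these 11, LAMA4, SPARC, NID1, MMP9 and TIMP3 had 0 counts in all 6 samples, which allows up to 0.0995 to 0.143 CPM in a sample (3 counts, counting error only). The other 6 (ITGA5, ITGB3, COL4A5, COL5A1, COL12A1 and ADAMTS1) had at most 4 counts in any sample. ITGA5, the alpha chain of the main fibronectin receptor, had 1 count in WT replicate 3 and 2 in METTL3-KO replicate 2. It was therefore too low to test, while FN1 was tested. In edgeR's quasi-likelihood test 17 of the 40 tested members (42.5%) had an adjusted p under 0.05, 9 higher and 8 lower in METTL3-KO. Of all 22452 genes tested, 26.5% passed, 13.3% higher and 13.2% lower. Genes with at least 1 CPM passed more often, 38.2% of all such genes and 48.5% of the members at that level (16 of 33). The median log2 fold change of the tested members was -0.00 and that of all tested genes was -0.02. Fold changes are METTL3-KO over WT throughout, with the standard error (SE) of the log2 fold change, and CPM are set on TMM-scaled library sizes.

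**Figure D1:**
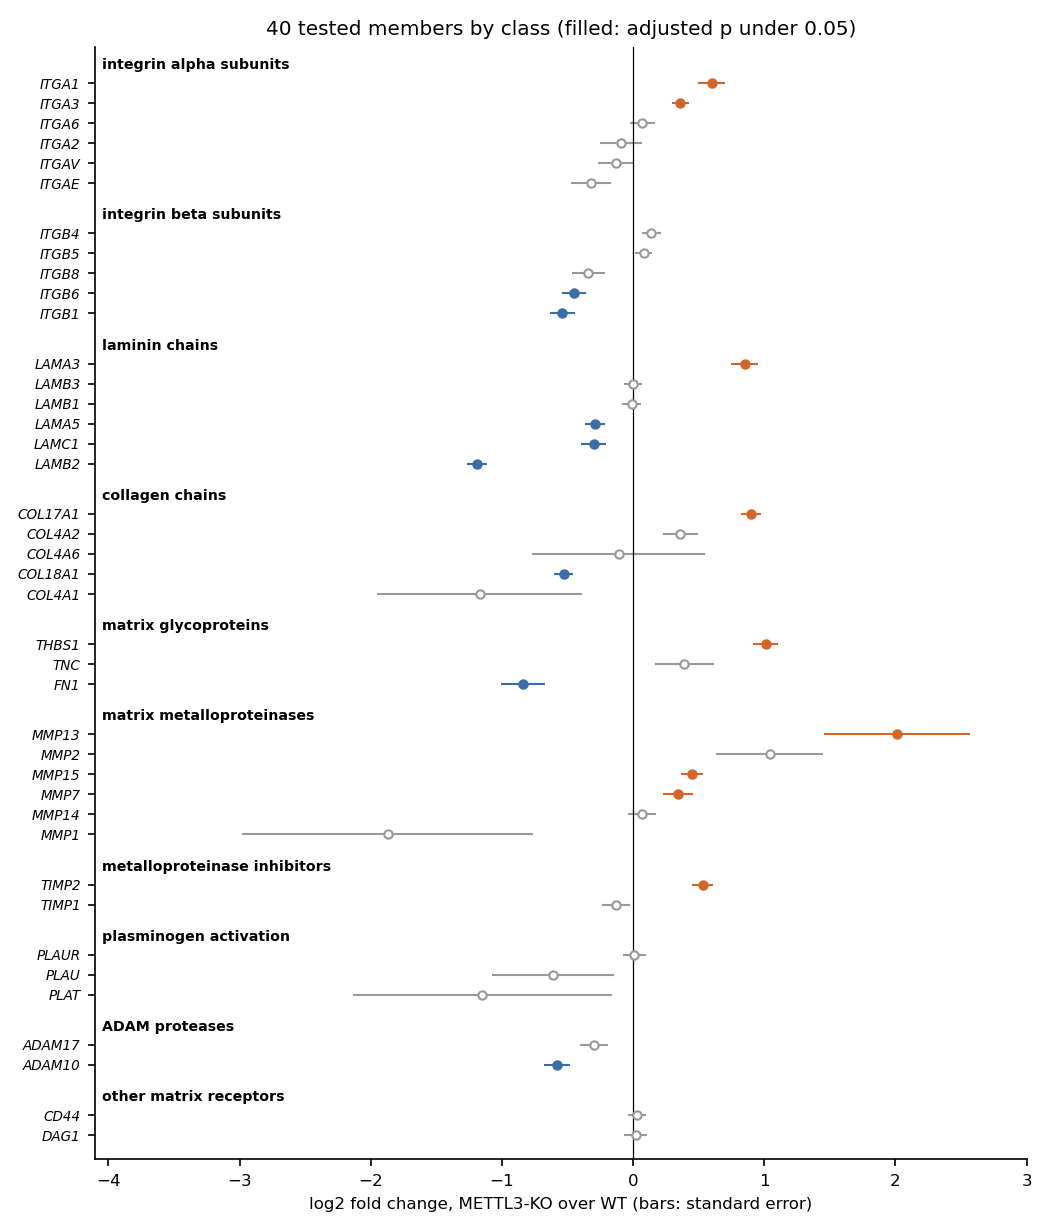
Log2 fold change of METTL3-KO over WT for the 40 tested members, ordered by class on the vertical axis, with bars for 1 standard error. Filled points have an adjusted p under 0.05 in edgeR, orange for higher and blue for lower in METTL3-KO. The filled points reach from -1.19 (LAMB2) to 2.01 (MMP13), and open points with wide bars belong to genes with few counts.

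Among 6 tested integrin alpha subunits ITGA1 and ITGA3 rose in METTL3-KO, and among 5 tested beta subunits ITGB1 and ITGB6 fell. These 4 of 11 tested subunits (36.4%) compare with 38.2% of all genes with at least 1 CPM. The direction did not follow the class, since ITGB7, a beta subunit outside the members, rose. Without replicate 3 of both groups ITGB4 also passed as higher and ITGAE as lower. In the reported fit with all 6 samples neither passed (adjusted p = 0.161 and 0.139, edgeR). ITGB1 is the partner of the alpha chains encoded by ITGA1, ITGA2 and ITGA3. ITGA1 (chr5:52083750-52255039 on GRCh37, + strand), whose protein binds collagen, stood at 58.8, 58.8 and 71.7 CPM in WT replicates 1, 2 and 3 and at 99.5, 103 and 83.9 CPM in METTL3-KO. The groups did not overlap, and replicate 3 was the closest to the other group on both sides. ITGA1 rose 1.51-fold, a log2 fold change of 0.60 (SE 0.102 and adjusted p = 0.00105, edgeR), and by 0.78 on the log2 scale without replicate 3. ITGA3 (chr17:48133332-48167845, + strand), whose protein binds laminins, stood at 356, 370 and 373 CPM in WT and at 469, 465 and 475 CPM in METTL3-KO. The spread within each group was small beside the gap. Its log2 fold change was 0.36 (SE 0.0637 and adjusted p = 0.00137, edgeR), and it was again 0.36 without replicate 3.

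ITGB1 (chr10:33176201-33294720, - strand) stood at 392, 408 and 484 CPM in WT and at 309, 310 and 265 CPM in METTL3-KO. The highest METTL3-KO sample was below the lowest WT sample. The fall was to 0.690 of WT (log2 fold change -0.54, SE 0.0943 and adjusted p = 0.00127, edgeR), and the log2 fold change was -0.37 without replicate 3. ITGB6 (chr2:160956178-161056824, - strand) pairs with ITGAV in an epithelial receptor that activates latent TGF-beta. It stood at 54.1, 55.9 and 66.8 CPM in WT and at 45.2, 43.1 and 41.2 CPM in METTL3-KO, without overlap. ITGB6 had a log2 fold change of -0.45 (SE 0.0920 and adjusted p = 0.00346, edgeR) and -0.32 without replicate 3. In GENCODE 16.7% of the exon bases of ITGB6 are shared with a gene whose symbol is not among those counted, and 2.69% of those of ITGA1 with PELO, which was counted. The strand setting of the counting is not given in the sources used here.

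The other 7 tested integrin subunits did not pass with all samples, and 5 of them passed without replicate 3 of both groups. Under a correction for transcript length and GC content with all samples, those 5 did not pass and ITGB8 did (adjusted p = 0.00235, edgeR). ITGA2, a collagen receptor chain, stood at 115, 113 and 177 CPM in WT and 142, 132 and 107 CPM in METTL3-KO. WT replicate 3 was the highest of all 6 samples and METTL3-KO replicate 3 the lowest. The log2 fold change was -0.09 (SE 0.159 and adjusted p = 0.729, edgeR) with all samples and 0.27 (adjusted p = 1.48e-06) without replicate 3. ITGAV, the alpha chain shared by ITGB5, ITGB6 and ITGB8, likewise had -0.13 with all samples and 0.15 without (adjusted p = 0.514 and 0.00658, edgeR). ITGA6 and ITGB4 form the laminin receptor of hemidesmosomes. They had log2 fold changes of 0.07 (SE 0.0955) and 0.14 (SE 0.0703), which passed without replicate 3 at 0.24 and 0.20 (adjusted p = 6.00e-07 and 1.30e-05, edgeR). Leaving out WT replicate 3 alone also made ITGA6 and ITGB4 pass (adjusted p = 0.0358 and 0.0131, edgeR). ITGAE, whose protein binds E-cadherin, fell short with all samples (-0.32, SE 0.151 and adjusted p = 0.139, edgeR) and passed without WT replicate 3 (-0.49, adjusted p = 0.00108). ITGB5 had a log2 fold change of 0.08 (SE 0.0665) and ITGB8 one of -0.34 (SE 0.125 and adjusted p = 0.0669, edgeR). Without WT replicate 2 the adjusted p of ITGB8 was 0.0441, and without replicate 3 of both groups its log2 fold change was -0.13 (adjusted p = 0.240, edgeR). That of ITGB5 was then 0.04.

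The laminin chains showed both the largest fall and 1 of the larger rises among members with at least 1 CPM. Of 6 tested chains, LAMA3 rose, LAMB2, LAMA5 and LAMC1 fell, and LAMB1 and LAMB3 did not pass. LAMB2 (chr3:49158547-49170551, - strand) stood at 61.9, 66.2 and 59.0 CPM in WT and at 27.5, 26.7 and 28.0 CPM in METTL3-KO. The METTL3-KO values lay far below all WT values. LAMB2 was 2.28-fold lower (log2 fold change -1.19, SE 0.0778 and adjusted p = 1.62e-06, edgeR), and the log2 fold change was -1.24 without replicate 3. LAMA3 (chr18:21269417-21536186, + strand) stood at 43.8, 48.3 and 57.0 CPM in WT and at 96.2, 90.0 and 81.8 CPM in METTL3-KO. All METTL3-KO samples exceeded all WT samples. LAMA3 was 1.80-fold higher (log2 fold change 0.85, SE 0.102 and adjusted p = 9.82e-05, edgeR), and the log2 fold change was 1.02 without replicate 3.

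LAMA3 and LAMB3 encode chains of the laminin on which hemidesmosomes anchor. LAMB3 stood at 126, 122 and 126 CPM in WT and at 123, 121 and 129 CPM in METTL3-KO, so the groups overlapped. Its log2 fold change was 0.00 (SE 0.0679 and adjusted p = 0.999, edgeR), with signs on either side of 0 among the alternatives. Within each sample, the log2 ratio of LAMA3 to LAMB3 counts went from -1.52, -1.33 and -1.14 in WT to -0.35, -0.43 and -0.66 in METTL3-KO. The mean ratio differed by 0.85 on the log2 scale (exact permutation p = 0.1, the smallest that 3 samples against 3 can give). AP-1 letters were in the LAMA3 window printed above and in the LAMB3 window, which was picked for its match.

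LAMA5, LAMB1, LAMB2 and LAMC1 encode the chains of the other main epithelial laminins. LAMA5 (chr20:60883011-60942368, - strand) stood at 612, 606 and 702 CPM in WT and 545, 526 and 504 CPM in METTL3-KO. The groups did not overlap. LAMA5 had a log2 fold change of -0.29 (SE 0.0761 and adjusted p = 0.0152, edgeR) and -0.19 without replicate 3. The call was lost without METTL3-KO replicate 2 (adjusted p = 0.0697, edgeR) or METTL3-KO replicate 3 (0.0605). With all samples LAMA5 had -0.32 under a correction for transcript length and GC content (adjusted p = 8.37e-05, edgeR). With a block for replicate number it had -0.28 (0.107). LAMC1 (chr1:182992555-183114727, + strand), the common gamma chain, stood at 77.5, 80.6 and 97.0 CPM in WT and at 73.0, 70.2 and 63.1 CPM in METTL3-KO. The groups were apart by little. Its log2 fold change of -0.30 (SE 0.0965 and adjusted p = 0.0355, edgeR) became -0.14 without replicate 3 (adjusted p = 0.0187). With all samples LAMC1 had -0.34 under the length and GC correction (adjusted p = 0.000221, edgeR) and -0.30 with the replicate block (0.143). Leaving out any single sample except WT replicate 1 ended the LAMC1 call, with adjusted p from 0.0513 (without WT replicate 3) and 0.0570 (without WT replicate 2) to 0.0619, 0.0947 and 0.126 (without METTL3-KO replicates 1, 2 and 3, edgeR). LAMB1 stood at 153, 145 and 167 CPM in WT and 155, 155 and 152 CPM in METTL3-KO, and its log2 fold change was -0.01 (SE 0.0729), which turned to 0.06 without replicate 3. The within-sample log2 ratio of LAMB1 to LAMC1 was 0.87 ± 0.10 in WT and 1.17 ± 0.09 in METTL3-KO (SD, n = 3 each, exact permutation p = 0.1).

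**Figure D2:**
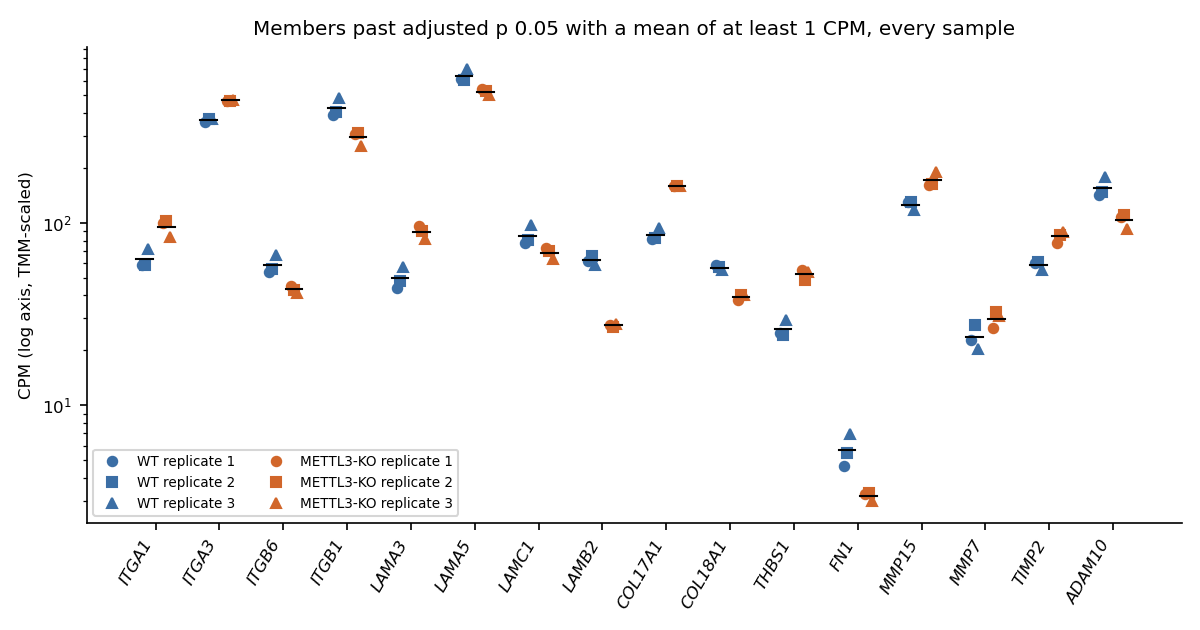
CPM on a log axis for the 16 called members (adjusted p under 0.05) that averaged at least 1 CPM, with WT in blue and METTL3-KO in orange, circles, squares and triangles for replicates 1, 2 and 3, and lines for group means. The groups overlap for MMP7, and the triangles of replicate 3 often lie at the edge of their group, as for ITGB1 at 484 and 265 CPM.

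Among the collagens, the hemidesmosome collagen rose and a basement membrane collagen fell. COL17A1 (chr10:105791044-105845638, - strand) codes for a collagen that spans the membrane at hemidesmosomes. It stood at 81.3, 82.2 and 94.0 CPM in WT and at 160, 160 and 160 CPM in METTL3-KO. The METTL3-KO samples hardly differed among themselves. COL17A1 was 1.86-fold higher (log2 fold change 0.90, SE 0.0767 and adjusted p = 8.96e-06, edgeR), with 0.97 without replicate 3. COL18A1 (chr21:46825080-46933634, + strand), from which endostatin is cut, stood at 58.8, 57.0 and 54.9 CPM in WT and at 37.8, 40 and 40 CPM in METTL3-KO. The groups were well apart. COL18A1 fell with a log2 fold change of -0.53 (SE 0.0736 and adjusted p = 0.000244, edgeR) and -0.58 without replicate 3. GENCODE places 18.5% of the COL18A1 exon bases in exons of SLC19A1 on the other strand.

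The type IV collagen genes were counted unevenly. COL4A2 had 290, 210 and 198 counts in WT and 313, 276 and 343 in METTL3-KO, while its neighbour COL4A1 had 4, 2 and 3 counts in WT and 1, 1 and 2 in METTL3-KO. Per kilobase of transcript this was 1.51 CPM for COL4A2 and 0.0191 CPM for COL4A1 in WT, from genes whose starts both lie in the window printed above. COL4A2 had a log2 fold change of 0.36 (SE 0.131 and adjusted p = 0.0643, edgeR) and passed only without METTL3-KO replicate 1 among the samples left out singly (0.48, adjusted p = 0.0227). The value for COL4A2 was 0.19 without replicate 3 of both groups (adjusted p = 0.176, edgeR). COL4A1 did not pass (adjusted p = 0.309). The log2 ratio of COL4A1 to COL4A2 was -6.08 ± 0.29 in WT and -7.45 ± 0.31 in METTL3-KO (SD, n = 3 each, exact permutation p = 0.1), on 1 to 4 COL4A1 counts a sample. With a pseudocount of 5 in place of 0.5, this difference shrank from -1.37 to -0.76. COL4A6 had 2 to 6 counts a sample and did not pass (adjusted p = 0.926, edgeR), and COL4A5 had 0 counts in 5 samples and 3 in METTL3-KO replicate 3.

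The matrix glycoproteins gave the largest rise among members with at least 1 CPM. THBS1 (chr15:39873280-39891667, + strand) codes for thrombospondin, a secreted regulator of adhesion and of TGF-beta. It stood at 24.8, 24.4 and 29.3 CPM in WT and at 55.0, 48.6 and 53.7 CPM in METTL3-KO. No METTL3-KO sample came near the WT range. THBS1 was 2.01-fold higher (log2 fold change 1.01, SE 0.0930 and adjusted p = 1.54e-05, edgeR), with 1.08 without replicate 3. FN1 (chr2:216225163-216300796, - strand), fibronectin, was counted at a low level, 128, 124 and 148 counts in WT and 98, 72 and 70 in METTL3-KO. That was 4.66, 5.49 and 6.94 CPM against 3.25, 3.28 and 2.98 CPM, with the METTL3-KO samples lowest. Its log2 fold change was -0.84 (SE 0.165 and adjusted p = 0.00265, edgeR) and -0.63 without replicate 3. TNC, tenascin, had 30 to 55 counts in WT and 51 to 80 in METTL3-KO, a log2 fold change of 0.39 (SE 0.224 and adjusted p = 0.234, edgeR). It passed without WT replicate 3 (0.62, adjusted p = 0.0319) and without replicate 3 of both groups (0.58, adjusted p = 0.0314).

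Of 6 tested matrix metalloproteinases, MMP15, MMP7 and MMP13 were higher in METTL3-KO and none was lower at adjusted p under 0.05. MMP15 (chr16:58059658-58080805, + strand), a membrane-anchored protease, stood at 130, 131 and 117 CPM in WT and 161, 164 and 190 CPM in METTL3-KO. The groups were apart, with replicate 3 farthest out on both sides. MMP15 rose with a log2 fold change of 0.45 (SE 0.0841 and adjusted p = 0.00200, edgeR) and 0.32 without replicate 3. MMP7 (chr11:102391239-102401481, - strand), a small secreted protease of epithelial cells, stood at 22.9, 27.5 and 20.4 CPM in WT and at 26.6, 32.3 and 30.8 CPM in METTL3-KO. WT replicate 2 lay above METTL3-KO replicate 1, so the groups overlapped. The log2 fold change of MMP7 was 0.34 (SE 0.115 and adjusted p = 0.0484, edgeR) and 0.22 without replicate 3. The MMP7 call was lost without WT replicate 1 (adjusted p = 0.140, edgeR), WT replicate 3 (0.0572), METTL3-KO replicate 2 (0.177) or METTL3-KO replicate 3 (0.110).

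MMP13 (chr11:102813724-102826461, - strand), a collagenase, had 2, 6 and 1 counts in WT and 19, 11 and 10 in METTL3-KO. The METTL3-KO samples all had more counts, at levels that stayed under 1 CPM. The fitted fold was 4.02 (log2 fold change 2.01, SE 0.556 and adjusted p = 0.0187, edgeR). Without WT replicate 1, METTL3-KO replicate 1 or METTL3-KO replicate 2 the adjusted p of MMP13 was 0.0816, 0.0826 and 0.0502, and without WT replicate 2 its log2 fold change was 3.0. Without replicate 3 of both groups MMP13 had 1.80 on this scale (adjusted p = 0.0110, edgeR). MMP14, the membrane-anchored activator of pro-MMP2, stood at 15.1, 15.9 and 13.6 CPM in WT and 14.2, 15.4 and 17.4 CPM in METTL3-KO. The groups overlapped, and the log2 fold change was 0.07 (SE 0.105) with all samples and -0.07 without replicate 3. MMP2 had 4 to 7 counts in WT and 11 to 14 in METTL3-KO (adjusted p = 0.0851, edgeR), and MMP1 had 1 to 4 and 0 to 2 (adjusted p = 0.250).

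Of the 2 tested inhibitors, TIMP2 rose and TIMP1 did not pass. TIMP2 (chr17:76849059-76921469, - strand), which also takes part in the activation of pro-MMP2, stood at 60, 60.7 and 55.2 CPM in WT and at 78.0, 86.2 and 89.6 CPM in METTL3-KO. The groups did not overlap. TIMP2 was 1.44-fold higher (log2 fold change 0.53, SE 0.0800 and adjusted p = 0.000474, edgeR), with 0.44 without replicate 3. TIMP1 stood at 96.4, 98.5 and 74.9 CPM in WT and 76.5, 82.0 and 89.0 CPM in METTL3-KO. WT replicate 3 was the lowest of all 6 samples, and the log2 fold change of -0.13 (SE 0.105 and adjusted p = 0.421, edgeR) became -0.30 without replicate 3 (adjusted p = 8.78e-07) and -0.24 without WT replicate 3 alone (adjusted p = 0.0125). With all samples and a correction for transcript length and GC content, that of TIMP1 was -0.10 (adjusted p = 0.144, edgeR). The log2 ratio of MMP14 to TIMP2 counts was -1.98 ± 0.04 in WT and -2.43 ± 0.06 in METTL3-KO (SD, n = 3 each). This difference of -0.46 had the smallest possible exact permutation p, 0.1.

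No gene of the plasminogen activation class passed. PLAUR, the urokinase receptor, stood at 64.8, 75.9 and 62.5 CPM in WT and 66.7, 67.1 and 70.8 CPM in METTL3-KO, with overlapping groups and a log2 fold change of 0.01 (SE 0.0857). PLAU, urokinase itself, had 14, 6 and 8 counts in WT and 5, 7 and 7 in METTL3-KO, so that per kilobase of transcript the receptor stood at 42.1 CPM and its ligand at 0.144 CPM in WT. GENCODE shares 31.0% of the PLAU exon bases with C10orf55, and read pairs that overlap more than 1 gene were left out by the counting. PLAT had at most 6 counts in any sample.

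ADAM10 (chr15:58881008-59041990, - strand), a sheddase of Notch and E-cadherin, stood at 143, 147 and 178 CPM in WT and at 108, 111 and 92.8 CPM in METTL3-KO. The groups were apart, with replicate 3 farthest out in each. ADAM10 was 1.5-fold lower (log2 fold change -0.58, SE 0.0993 and adjusted p = 0.00102, edgeR), with -0.41 without replicate 3. ADAM17, the sheddase of TNF, stood at 36.5, 34.7 and 46.0 CPM in WT and at 31.9, 32.7 and 30.7 CPM in METTL3-KO, without overlap. It fell short of the threshold (log2 fold change -0.30, SE 0.105 and adjusted p = 0.0555, edgeR) and passed without WT replicate 2 (adjusted p = 0.0373). ADAM17 had -0.15 without replicate 3 of both groups (adjusted p = 0.0669, edgeR). The other matrix receptors were level. CD44, the hyaluronan receptor, stood at 397, 379 and 422 CPM in WT and 415, 414 and 392 CPM in METTL3-KO. DAG1, dystroglycan, which binds laminin, stood at 110, 110 and 130 CPM in WT and 125, 121 and 110 CPM in METTL3-KO. Their log2 fold changes were 0.03 (SE 0.0695) and 0.02 (SE 0.0872), and 0.09 and 0.16 without replicate 3 (adjusted p = 0.0394 and 0.00264, edgeR).

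Levels were compared between genes as CPM per kilobase of the longest transcript. In WT the most abundant members were TIMP1 (82.1 ± 11.9, SD, n = 3), ITGB1 (76.2 ± 8.81), CD44 (73.5 ± 4.02), ITGB4 (73.0 ± 4.43), ITGA3 (66.9 ± 1.63) and ITGA6 (62.6 ± 8.49). Neighbours in this order did not differ beyond their spread, except that ITGA3 stood below ITGB4 by more than either SD. In METTL3-KO the order began with ITGA3 (85.8 ± 0.951), ITGB4 (80.6 ± 2.55), TIMP1 (75.3 ± 5.74), CD44 (74.9 ± 2.42) and ITGA6 (65.6 ± 4.37), and ITGB1 followed at 52.5 ± 4.61 after ITGB5 at 57.9 ± 0.656. LAMA5 was the most abundant laminin at 56.0 ± 4.71 in WT and 45.9 ± 1.80 in METTL3-KO. The top members of the other classes in WT were PLAUR at 42.1 ± 4.43, MMP15 at 31.0 ± 1.90, COL17A1 at 15.3 ± 1.26, ADAM10 at 14.0 ± 1.70 and THBS1 at 3.36 ± 0.351. FN1 stood at 0.621 ± 0.126 per kilobase in WT, under the level of all other called members with at least 1 CPM.

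**Figure D3:**
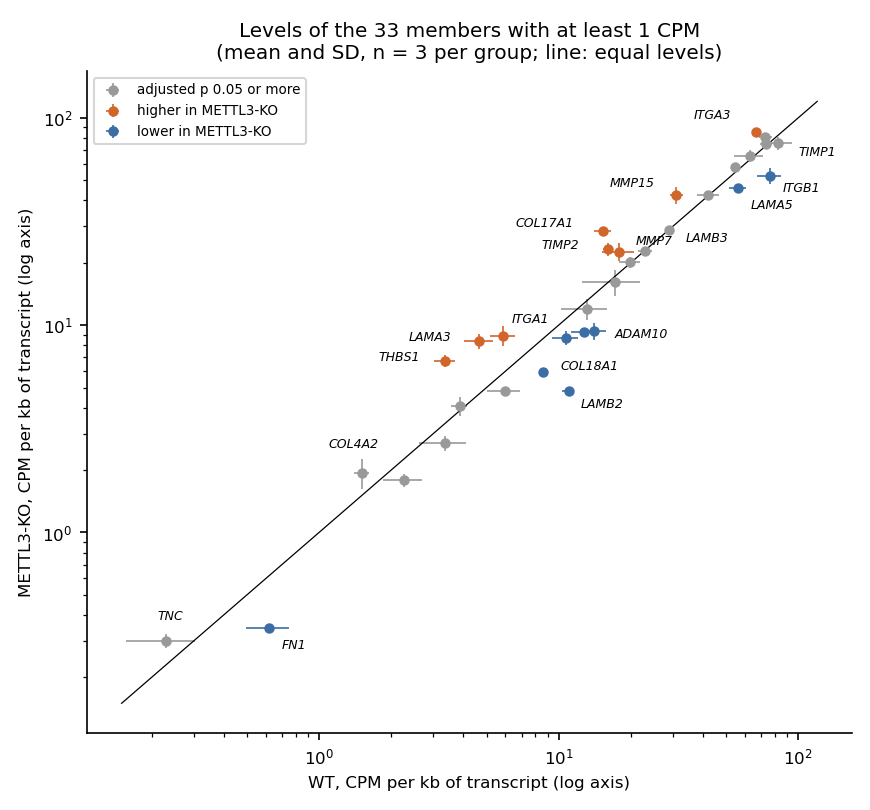
Mean level in WT (horizontal) and METTL3-KO (vertical) in CPM per kilobase of transcript on log axes for the 33 members with at least 1 CPM, with SD bars (n = 3 per group) and a line of equal levels. LAMB2 lies farthest below the line at 11 and 4.81, and THBS1 farthest above it at 3.36 and 6.73.

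Without replicate 3 of both groups, 26 of the 40 members tested passed (65.0%), 16 higher and 10 lower. The background rose as well, to 44.1% of all genes tested, 21.4% higher and 22.7% lower. All 17 members called with 6 samples passed again in the same direction, and CD44, DAG1, ITGA2, ITGA6, ITGAE, ITGAV, ITGB4, TIMP1 and TNC were added. None of these added members passed with all 6 samples under a correction for transcript length and GC content. Their adjusted p there ran from 0.0611 (ITGAE) to 0.898 (CD44, edgeR). THBS1, COL17A1, LAMA3, LAMB2, ITGA1, ITGA3, ITGB1, ITGB6, COL18A1, FN1, MMP15, TIMP2 and ADAM10, 13 in all, passed in every one of 15 fits, the one reported and 14 alternatives. LAMA5, LAMC1, MMP7 and MMP13 did not.

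**Figure D4:**
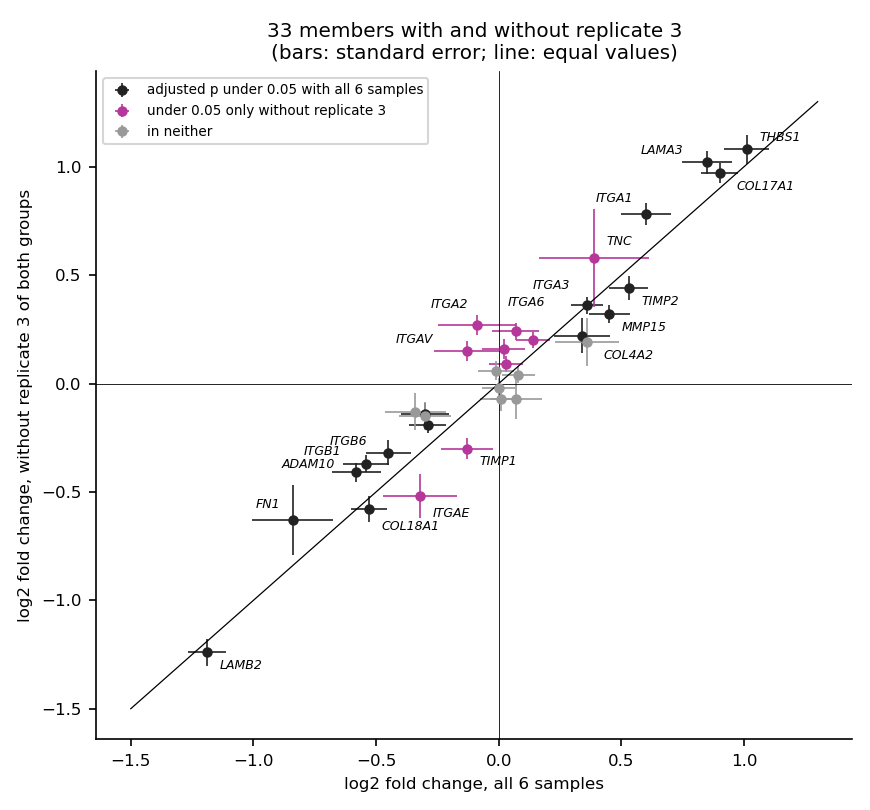
Log2 fold change with all 6 samples (horizontal) and without replicate 3 of both groups (vertical) for the 33 members with at least 1 CPM, with standard error bars and a line of equal values. ITGA2 moves from -0.09 to 0.27 and ITGAV from -0.13 to 0.15, while LAMB2, COL17A1 and THBS1 stay within 0.07 of the line.

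Partner genes were compared as log2 ratios of their counts within a sample, which do not depend on scaling between libraries. A trend with transcript length stays in such a ratio where partners differ in length, as LAMA3 (10651 bases) and LAMB3 (4305 bases) do. Of 7 pairs, COL4A1/COL4A2, LAMA3/LAMB3, LAMB1/LAMC1 and MMP14/TIMP2 had groups that did not overlap, at an exact permutation p of 0.1 and 0.175 after adjustment over the 7 pairs. A design of 3 against 3 cannot go below 0.1. The ratio of ITGA6 to ITGB4, both subunits of 1 receptor, was -0.25 ± 0.10 in WT and -0.32 ± 0.09 in METTL3-KO (SD, n = 3 each, exact permutation p = 0.6). PLAU to PLAUR stood at -7.43 ± 0.56 and -7.98 ± 0.47 (exact permutation p = 0.3). COL4A5 to COL4A6 rested on 0 to 6 counts a gene and turned its direction without METTL3-KO replicate 3.

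**Figure D5:**
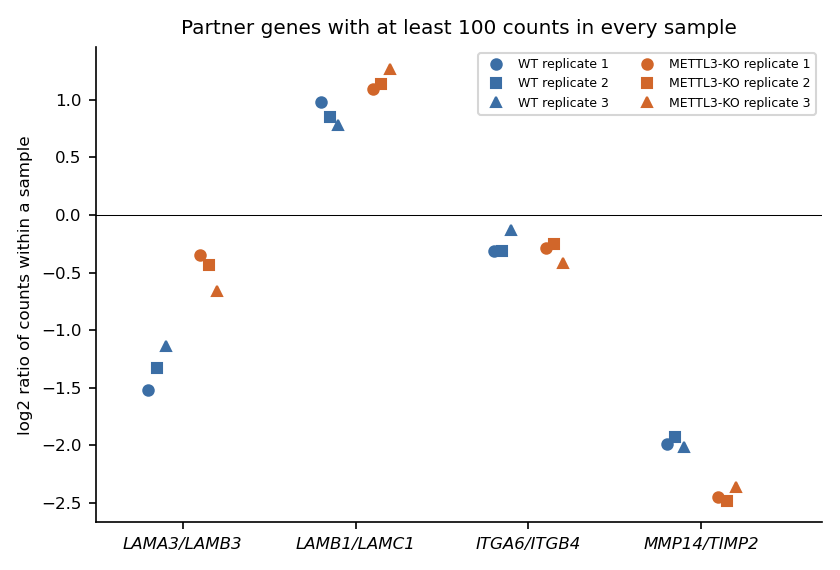
Log2 ratio of the counts of partner genes within each sample for the 4 pairs with at least 100 counts of both genes in every sample, WT in blue and METTL3-KO in orange, with circles, squares and triangles for replicates 1, 2 and 3. LAMA3/LAMB3 and LAMB1/LAMC1 lie higher and MMP14/TIMP2 lower in all METTL3-KO samples, while ITGA6/ITGB4 overlaps.

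Other genes of adhesion and matrix, 96 in 8 lists, were set beside the members. Of 82 tested, 32 passed (39.0%), 21 higher and 11 lower, against 26.5% of all genes. At least 1 CPM was reached by 63 of the 82, among them all that passed except ITGA10 and MMP19. The 39.0% is thus not the share at that level, where 38.2% of all genes passed. Among 6 hemidesmosome and tetraspanin partners, 3 were higher and 1 was lower. PLEC and DST, the cytoskeletal linkers of hemidesmosomes, rose (log2 fold change 0.51, SE 0.0893 and 0.54, SE 0.139 and adjusted p = 0.00116 and 0.0131, edgeR). DST no longer passed without WT replicate 1, METTL3-KO replicate 1 or METTL3-KO replicate 2 (adjusted p = 0.0556, 0.0653 and 0.0549, edgeR). CD151, a tetraspanin that binds laminin-binding integrins, fell (-0.44, SE 0.0865 and adjusted p = 0.00280, edgeR). Among 22 integrin adaptors and focal adhesion genes, 5 were higher and 5 lower. The named ones were TLN2, a talin (-1.23, SE 0.177), ILK, a pseudokinase at the integrin tail (-1.10, SE 0.236), and FLNA, a filamin that crosslinks actin (-0.69, SE 0.0902), with adjusted p = 0.000331, 0.00461 and 0.000166 in edgeR. FLNA had 1015, 1023 and 1259 CPM in WT and 713, 687 and 639 CPM in METTL3-KO, without overlap. The 7 others of this list that passed, named after their values were seen, were TLN1 (0.32), PTK2 (0.30), TNS3 (0.33), ACTN1 (0.37) and SRC (0.24), which rose, and LIMS1 (-0.51) and FERMT1 (-0.26), which fell. Of these, TNS3, SRC and FERMT1 each lost the call without any of 4 single samples and TLN1 without WT replicate 1 or METTL3-KO replicate 1. In GENCODE 68.1% of the exon bases of ILK are shared with TAF10, which was also counted, so its counts are uncertain.

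Among 9 tested integrin subunits outside the members, 2 were higher. ITGB7, which pairs with ITGAE, stood at 9.76, 7.87 and 7.97 CPM in WT and at 25.1, 23.0 and 26.6 CPM in METTL3-KO. The groups were far apart, with a log2 fold change of 1.54 (SE 0.110 and adjusted p = 2.89e-06, edgeR). Among the further laminin and basement membrane genes, LAMA2 was higher (1.04, SE 0.236 and adjusted p = 0.00615, edgeR). Of 14 genes of collagen folding and crosslinking, 2 were higher and 3 lower. The 3 that fell were the lysyl oxidases LOX (-1.61, SE 0.223), LOXL1 (-1.14, SE 0.108) and LOXL3 (-1.09, SE 0.247), enzymes that crosslink collagen and elastin, with adjusted p = 0.000261, 1.75e-05 and 0.00621 in edgeR. LOXL1 stood at 16.8, 16.2 and 14.9 CPM in WT and at 7.0, 8.05 and 6.68 CPM in METTL3-KO. LOX and LOXL3 were low, with means of 2.56 and 1.68 CPM in WT and 0.838 and 0.773 CPM in METTL3-KO. LOXL2 and LOXL4 did not pass (adjusted p = 0.889 and 0.576, edgeR).

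Of 6 tested genes of the plasmin system and its inhibitors, 4 were higher. SERPINE2 (0.50, SE 0.123) and SERPINB5 (0.38, SE 0.0738) are serpins, and ANXA2 (0.40, SE 0.0861) binds plasminogen at the cell surface (adjusted p = 0.0101, 0.00263 and 0.00448, edgeR). Among 6 tested further MMP and TIMP genes 2 were lower, of which MMP24 had at least 1 CPM (-0.48, SE 0.128 and adjusted p = 0.0163, edgeR). Among 12 further ADAM genes 3 were higher, ADAM15 (0.43, SE 0.0978), ADAM28 (0.57, SE 0.153) and ADAMTSL4 (0.98, SE 0.335), with adjusted p = 0.00677, 0.0164 and 0.0497 in edgeR. Calls were lost without 1 sample for SERPINE2 (METTL3-KO replicate 1, adjusted p = 0.0576), for MMP24 (METTL3-KO replicate 2, 0.0767) and for ADAM28 (WT replicate 1, METTL3-KO replicate 1 or 2, 0.0825, 0.0700 and 0.0798, edgeR). ADAMTSL4 passed only without WT replicate 3 among the samples left out singly, and the other 5 fits gave adjusted p = 0.0537 to 0.213 in edgeR. The ADAMTSL4 value rested on about 1.02 CPM in WT and 2.01 CPM in METTL3-KO. Among the genes of these lists outside the naming rule, chosen after their values were seen, the prolyl hydroxylase subunits P4HA2 (0.87, SE 0.0789) and P4HB (0.74, SE 0.0796), the tetraspanin CD9 (0.35, SE 0.0837) and the serpin SERPINB6 (0.37, SE 0.0951) rose (adjusted p = 1.35e-05, 4.40e-05, 0.00932 and 0.0121, edgeR). ITGA10 (1.07, SE 0.349) and MMP19 (-1.76, SE 0.357) passed at levels under 1 CPM (adjusted p = 0.0413 and 0.00317, edgeR), ITGA10 not without WT replicate 1 or 2 or METTL3-KO replicate 1 or 2 (0.0777 to 0.156). Without replicate 3 of both groups the log2 fold change was 0.82 for DST, 0.26 for ANXA2, 0.26 for ADAM15, 0.21 for SERPINB6, 0.51 for TNS3, -0.15 for FERMT1 and 1.51 for ADAMTSL4. With a block for replicate number CD9, SERPINB6, ADAM15 and PTK2 no longer passed (adjusted p = 0.067, 0.0726, 0.0504 and 0.0659, edgeR). Nor did TLN1, TNS3, SRC, FERMT1, ADAM28, MMP24, ADAMTSL4 and ITGA10, which also lost calls without single samples.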

How the data were processed

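RNA-seq of HCT116 cells was analysed, 3 WT and 3 METTL3-KO samples, grouped by the submitters' labels. Per the study's methods and the submitters' processing notes, the authors sequenced TruSeq libraries as paired ends, aligned the reads with TopHat2 2.0.11 to hg19 with Ensembl GRCh37 gene models and counted read pairs with htseq-count (union mode). The files hold the authors' whole-number counts by gene symbol as deposited, not normalized, and 28.2% to 30.7% of the read pairs recorded in each file were assigned to no gene and stayed out of the tests. The file names abbreviate the groups as NC and SiM3. SiM3 could be read as an siRNA knockdown, and the labels, which give a METTL3 knockout, were followed. How the strand was treated is not given in the sources used here.

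Genes whose total count was under 5 in each of the groups were dropped, leaving 22452 of 56638. METTL3-KO was compared with WT by edgeR's quasi-likelihood test (edgeR 4.0.16, R 4.3.3, TMM, two-sided), with Benjamini-Hochberg adjustment over all genes tested. The SE was the log2 fold change over the square root of F. Partner ratios (pseudocount 0.5) were compared with an exact permutation test (two-sided). Positions, lengths and shared exon bases came from GENCODE on GRCh37 and promoters from RefSeq on GRCh38.p14.

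Members with an adjusted p under 0.05 are named by class, those with a mean of at least 1 CPM with their value in every sample, and in each further list up to 3 genes with the largest changes at that level. A gene of these lists is not reported here. The members and lists were chosen with earlier results of these data known. Alternatives were DESeq2 1.42.0, RLE factors, other filters, the replicate block, leaving out samples, and a correction for transcript length and GC content. The procedures were tested on simulated data. Totals of 20936091 to 30142144 counts put 3 counts at 0.0995 to 0.143 CPM. Sampling limits cover counting error only.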

Additional observations from a re-analysis of the deposited data

How the results depend on the processing

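Of the 17 members called, all kept their direction in all 14 alternatives that tested them, and 13 kept their call. Same-numbered samples of the groups did not deviate together (correlations -0.586, -0.39 and -0.784). Replicate 3 stood apart in both groups with length trends of opposite sign, so these correlations cannot tell whether the numbers pair the samples. With the replicate block 7 members were higher and 6 lower (13 called, without LAMA5, LAMC1, MMP7 and MMP13), and 1810 genes were higher and 1719 lower over all genes, against 2986 and 2959. Without replicate 3 of both groups these were 4555 and 4823, with 16 members higher. Leaving out each sample in turn gave 7 to 11 members higher, 6 to 9 lower, and 2188 to 3809 and 1976 to 3793 over all genes. With the length and GC correction 9 members were higher and 10 lower, with ADAM17 and ITGB8 added. MMP13 was not tested under filterByExpr, and ADAM17, COL4A2, ITGAE and ITGB8 were added with no filter beyond 1 count.

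Signs turned for members near 0, all without a call except where stated in the report. Without replicate 3 of both groups the log2 fold change was 0.27 for ITGA2, 0.15 for ITGAV, 0.06 for LAMB1, -0.02 for LAMB3, 0.33 for COL4A6 and -0.07 for MMP14 and PLAUR. LAMB1 was 0.00 under DESeq2, RLE and no filter. LAMB3 was -0.00 with the replicate block and -0.04 with the length and GC correction, with or without the block, where DAG1 was -0.02. Over the fits without 1 sample, log2 fold changes ran from -0.19 to 0.16 for ITGA2, -0.21 to 0.06 for ITGAV, -0.04 to 0.05 for LAMB1, -0.03 to 0.02 for LAMB3, -0.65 to 0.12 for COL4A6, -0.01 to 0.14 for MMP14, -0.04 to 0.11 for PLAUR and -0.02 to 0.11 for DAG1. The COL4A5/COL4A6 ratio difference of 1.08 turned to -0.20 without replicate 3 of both groups and ran from -0.08 to 2.01 without single samples. The ITGA6/ITGB4 difference of -0.07 turned to 0.04 without replicate 3 of both groups. Genes with few counts (COL4A1, COL4A6, MMP1, PLAT) are limited by depth. The causes of these changes were not tested.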
